A study of Homo sapiens with 24 samples.

Results

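The genes whose response to ZBED2 knock-down depended on FOXA1 knock-down were sought in SCaBER, a human bladder squamous carcinoma cell line of the basal/squamous (Ba/Sq) subtype. 12 of the 24 libraries of the series were from SCaBER and the other 12 from RT112, a luminal papillary bladder cancer cell line. The SCaBER libraries formed 6 groups of 2, each transfected with siRNA by Lipofectamine RNAiMAX for less than 72 h: siControl (siRNA number 2), siZBED2-1, siZBED2-2, siFOXA1 (siRNA number 1), siFOXA1+siZBED2-1 and siFOXA1+siZBED2-2. 2 siRNAs were thus used against ZBED2 and 1 against FOXA1, and the total amount of siRNA in the double knock-downs was not given in the sources used here. RNA was measured by QuantSeq 3' RNA-seq, which reads the end of each polyadenylated transcript.

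For each gene, the change made by the ZBED2 siRNAs in the presence of siFOXA1 (mean of both siFOXA1+siZBED2 groups minus siFOXA1) was set against their change without it (mean of both siZBED2 groups minus siControl). The difference of these changes, on the log2 scale where 1 is 2-fold, is the interaction. A positive interaction means that a gene was moved up more, or down less, by siZBED2 when FOXA1 was also targeted. 300 of 13129 genes tested had an interaction (2.29%; edgeR adjusted p under 0.05), of which 141 were positive (1.07%) and 159 negative (1.21%). With the replicate number as a block the count was 508 (3.87%), 248 positive (1.89%) and 260 negative (1.98%), and all 300 were among them. DESeq2 called 464 genes, limma on log2(TPM + 1) 31, all of them among the 300, and a fit of all 24 libraries 120. The gene just inside the threshold was GSTO1, at -0.65 with an edgeR adjusted p of 0.0492, and the gene just outside was GINS2, at 1.07 with 0.05.

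FOXA1 is a forkhead pioneer factor that opens chromatin at luminal enhancers of the urothelium, and Ba/Sq tumours express little of it. ZBED2 is a zinc finger transcription factor of the BED family, found in keratinocytes and basal-type carcinomas and described elsewhere as a repressor of interferon-response genes. Interferon signalling runs through JAK kinases to a complex holding STAT2 and IRF9, which binds the interferon-stimulated response element of antiviral genes. Genes of DNA replication are driven by E2F factors, and those of mitosis by the MYBL2-MuvB and FOXM1 complexes through the cell cycle homology region, often beside CCAAT boxes bound by NF-Y.

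The promoters of 4 members are shown because the interferon effectors and the mitosis genes, to which they belong, are described at length. The sequences are the 250 bases before the gene start in RefSeq GRCh38.p14, 5' to 3' on the gene's strand. In RSAD2 (chr2:6865635-6865884, + strand) and GBP1 (chr1:89065209-89065458, - strand), both interferon effectors, the capitals mark the interferon response core GAAANNGAA on either strand.
RSAD2: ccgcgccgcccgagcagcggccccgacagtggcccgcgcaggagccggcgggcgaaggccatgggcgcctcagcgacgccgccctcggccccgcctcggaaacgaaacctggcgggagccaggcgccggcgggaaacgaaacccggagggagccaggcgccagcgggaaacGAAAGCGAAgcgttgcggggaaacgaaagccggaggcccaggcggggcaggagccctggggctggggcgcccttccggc
GBP1: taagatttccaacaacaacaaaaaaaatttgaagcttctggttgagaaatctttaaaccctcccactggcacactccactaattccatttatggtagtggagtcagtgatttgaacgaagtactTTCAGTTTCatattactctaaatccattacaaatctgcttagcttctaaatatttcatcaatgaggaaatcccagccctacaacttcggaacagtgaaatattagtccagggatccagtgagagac
In TOP2A (chr17:40417897-40418146, - strand) and MKI67 (chr10:128126424-128126673, - strand), both mitosis genes, the capitals mark the cell cycle homology motif TTTGAA and the CCAAT box on either strand, which overlap by a base at the 3' end of the MKI67 window. Matches of the other group's motif are not in capitals: 1 of GAAANNGAA in MKI67 and 2 of TTTGAA in GBP1.
TOP2A: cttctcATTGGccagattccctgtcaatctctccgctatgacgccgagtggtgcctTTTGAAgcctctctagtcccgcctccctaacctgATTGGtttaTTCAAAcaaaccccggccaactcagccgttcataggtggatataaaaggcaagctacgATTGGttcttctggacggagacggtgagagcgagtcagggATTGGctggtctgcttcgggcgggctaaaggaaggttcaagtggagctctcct
MKI67: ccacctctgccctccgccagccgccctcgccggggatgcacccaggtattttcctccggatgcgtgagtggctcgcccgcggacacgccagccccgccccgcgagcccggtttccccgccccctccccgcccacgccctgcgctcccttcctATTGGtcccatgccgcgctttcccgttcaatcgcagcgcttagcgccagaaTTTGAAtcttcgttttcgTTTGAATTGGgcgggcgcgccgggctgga

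113 of the 141 positive and 122 of the 159 negative members had a promoter in the RefSeq table, and the motifs were searched in both strands of their 250 bases. TTTGAA was found in 28.3% of positive members and 5.74% of negative members, against 8.39% of the tested genes with a promoter and 13.6% of all promoters in the table. CCAAT was found in 54.0% and 32.8%, against 35.5% of tested genes and 33% of all promoters. GAAANNGAA was found in 4.42% of positive and 13.1% of negative members, against 5.48% of tested genes and 7.06% of all. The E2F motif TTCCCGC was in 13.3% and 11.5% of members, against 9.08% and 5.59%, and the forkhead motif TGTTTAC in 0.885% and 3.28%, against 1.94% and 2.98%. The positive members thus held more TTTGAA and CCAAT letters, and the negative members more GAAANNGAA, than the tested genes as a whole. A match describes these letters only, and no test was made of the shares.

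The SCaBER libraries held 4519668 to 6119210 counts each, with 14642 to 16082 genes detected, and the lowest total was that of siFOXA1 replicate 2. The keratins of basal cells were high in every library, KRT5 at 576 to 1060 CPM and KRT14 at 278 to 594 CPM. The basal markers TP63 and DSG3 were lower, at 10.5 to 24.4 and 20.1 to 45.3 CPM. Of the luminal markers, PPARG was at 9.75 to 32.5 CPM, GATA3 at 6.84 to 13.3 and UPK2 at 1.98 to 7.15, whereas the umbrella cell keratin KRT20 had no count. CPM are counts scaled by the library total for the cell type markers of this paragraph, and by the TMM library size elsewhere. Of 16 markers of fibroblasts, endothelium and leukocytes only 3 passed the filter on low counts. Their median interaction was -0.96, 0 were called by edgeR, DESeq2 or with the replicate block, 1 had an unadjusted p under 0.05, COL1A1 was at 2.94 to 13.7 CPM, and the medians of DCN, PECAM1 and PTPRC were 0. The labels give replicates by experiment batch without saying whether cultures were separate, so p-values measure the spread between these libraries, which may be technical.

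The targeted genes were examined first. ZBED2 was at 19.1 and 19.2 CPM in the siControl libraries, 2.40 and 7.34 with siZBED2-1, 8.86 and 16.0 with siZBED2-2, 20.4 and 19.1 with siFOXA1, 3.69 and 1.70 with siFOXA1+siZBED2-1, and 9.88 and 11.9 with siFOXA1+siZBED2-2. All 8 libraries with a ZBED2 siRNA lay below the 4 without one, but siZBED2-2 replicate 2 stood close to siControl. The change did not pass on siControl (-1.29, SE 0.37, edgeR adjusted p = 0.072) and passed on siFOXA1 (-1.85, SE 0.38, edgeR adjusted p = 0.00256), and its own interaction was not called (-0.56, SE 0.55, edgeR adjusted p = 0.741). FOXA1 was near the limit of detection in this line, with 20 and 28 counts in siControl, 14 and 1 with siZBED2-1, 25 and 20 with siZBED2-2, 4 and 6 with siFOXA1, 0 and 1 with siFOXA1+siZBED2-1, and 3 and 2 with siFOXA1+siZBED2-2. The siZBED2-1 replicate 2 library therefore held as little FOXA1 as the FOXA1 knock-downs, and the change by siFOXA1 was -2.09 (edgeR adjusted p = 0.272). Without siZBED2-1 replicate 2 the interaction was called for 258 genes, 235 of them among the 300, and without siZBED2-2 replicate 2 for 328 genes, 268 of them among the 300.

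The siZBED2 change on siControl and that on siFOXA1 had opposite signs in 245 of the 300 members (81.7%), against 48.3% of all genes tested. The choice of members by the difference of these changes favours opposite signs, so nothing is read from that share. Of the other members, 31 had the same sign and a larger change on siFOXA1, and 24 the same sign and a smaller one. In the positive members the median siZBED2 change was -0.36 on siControl and 0.63 on siFOXA1, and in the negative members 0.46 and -0.54, against -0.02 and -0.01 over all genes tested. The median siFOXA1 change was -1.29 on siControl and -0.31 on siZBED2 in the positive members, and 1.45 and 0.39 in the negative members. These values share libraries with the interaction and describe the members only. The interaction ranged from 0.39 to 7.97 in size with a median of 1.01, and 151 members reached 2-fold.

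**Figure D1:**
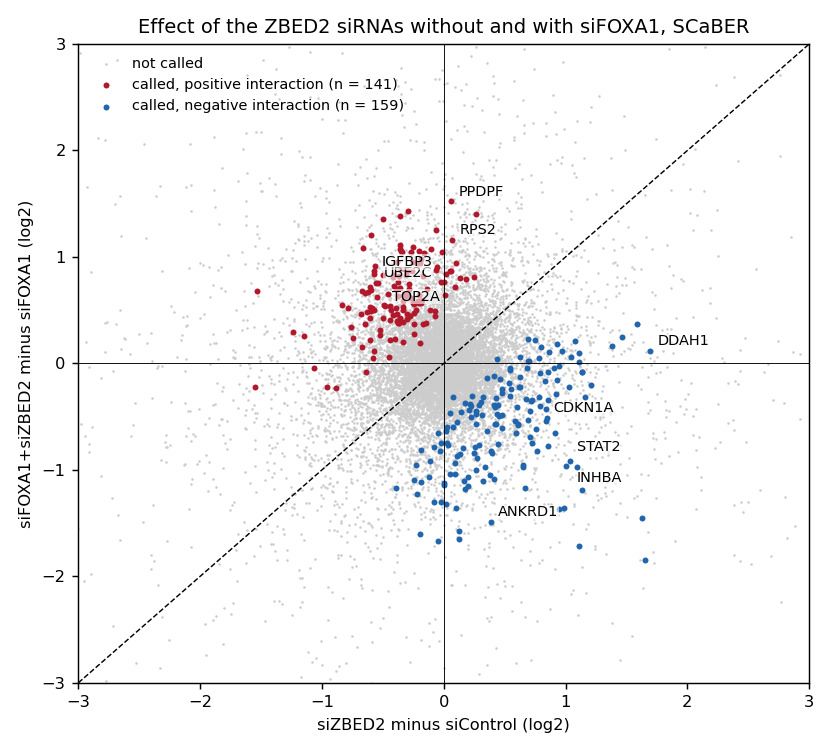
The siZBED2 change on siControl (x axis, log2) against the siZBED2 change on siFOXA1 (y axis, log2) for the genes tested in SCaBER; grey points are genes not called, red the 141 called with a positive and blue the 159 with a negative interaction, and the dashed line marks equal changes. Most called genes lie in the upper left and lower right quadrants, where the changes have opposite signs. 279 genes, 3 of them called, lie outside the axes at 3.

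At the level of single libraries, all 4 double knock-downs lay above both siFOXA1 libraries for 106 of the 141 positive members (75.2%; 10.8% of all genes tested), and all 4 siZBED2 libraries below both siControl libraries for 65 (46.1%; 8.35%). Of the 159 negative members, 109 had all 4 double knock-downs below both siFOXA1 libraries (68.6%; 11.2%), and 89 all 4 siZBED2 libraries above both siControl libraries (56.0%; 8.23%). These counts come from the contrast that chose the members. The sign was the same with both ZBED2 siRNAs in 299 of the 300 (99.7%; 70.4% of all genes tested), whose interactions share the siControl and siFOXA1 libraries. It was the same on the CPM scale, without the log, in all 300, against 94.9% of all genes tested.

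The siZBED2 comparisons on siControl and on siFOXA1 share no library. ZBED2 knock-down changed 240 genes on siControl (1.83%), 135 higher (1.03%) and 105 lower (0.8%). On siFOXA1 it changed 504 genes (3.84%), 271 higher (2.06%) and 233 lower (1.77%). Without siFOXA1 replicate 2 the latter count was 211, and without siControl replicate 1 or 2 the former was 159 or 92. 51 genes were called in both, 21.2% of the first list and 10.1% of the second. Of these, 34 went the same way and 17 opposite ways. 12 rose on siControl and fell on siFOXA1: INHBA, LAMB3, STAT2, CDKN1A, MALAT1, ADAM8, HEPHL1, SOD2, CHURC1, TMCC1, IL24 and SDC4. The other 5, TOP2A, UBE2C, IGFBP3, TOX2 and PBK, fell on siControl and rose on siFOXA1. For HEPHL1 and IL24 the rise on siControl came from siZBED2-1, and the siZBED2-2 libraries overlapped siControl. HEPHL1 was at 51.6 and 30.5 CPM in siControl, 153 and 96.2 with siZBED2-1, and 43.2 and 35.4 with siZBED2-2. The 17 numbered 34 with the replicate block, which held all 17, and 30 with DESeq2, which held 16 of them. They numbered 11 without siControl replicate 1, siZBED2-1 replicate 1 or 2 or siFOXA1 replicate 2, and 8 without siControl replicate 2.

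INHBA (ENSG00000122641, chr7:41685114-41705406 in GRCh38), which encodes the activin A subunit, a TGF-beta family ligand, had the smallest p. Its level was 108 and 83.6 CPM in siControl, 199 and 210 with siZBED2-1, 203 and 160 with siZBED2-2, 436 and 391 with siFOXA1, 237 and 196 with siFOXA1+siZBED2-1, and 206 and 210 with siFOXA1+siZBED2-2. Each knock-down alone gave higher levels than siControl, siFOXA1 gave the highest, and the double knock-downs fell back to the level of siZBED2 alone. ZBED2 knock-down raised it by 1.00 (SE 0.13) on siControl and changed it by -0.96 (SE 0.12) on siFOXA1, an interaction of -1.97 (SE 0.18, edgeR adjusted p = 2.76e-08).

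STAT2 (ENSG00000170581, chr12:56341597-56360107), the interferon signal transducer, also had its highest level with siFOXA1 alone. Its level was 21.2 and 18.2 CPM in siControl, 41.4 and 42.2 with siZBED2-1, 42.6 and 35.5 with siZBED2-2, 109 and 148 with siFOXA1, 83.7 and 75.3 with siFOXA1+siZBED2-1, and 49.8 and 66.2 with siFOXA1+siZBED2-2. No group overlapped siControl, and every double knock-down lay between siZBED2 alone and siFOXA1 alone. The interaction was -1.96 (SE 0.26, edgeR adjusted p = 2.20e-05), from a rise of 1.04 on siControl and a change of -0.92 on siFOXA1, both of which passed.

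**Figure D2:**
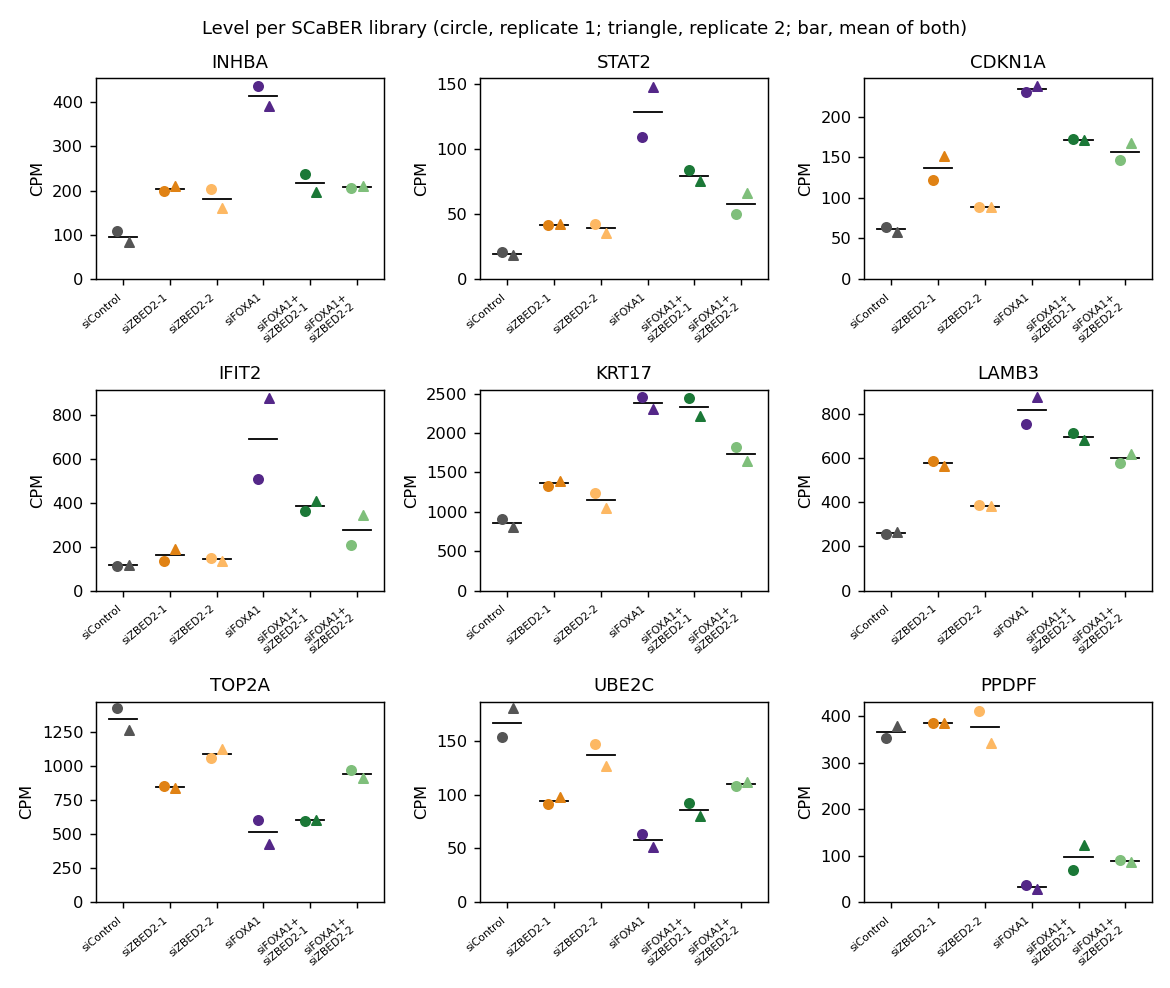
Levels of 9 members in the 12 SCaBER libraries (y axis, CPM from 0; x axis, the 6 groups; circle replicate 1, triangle replicate 2, bar the mean of both). INHBA, STAT2 and IFIT2 are highest with siFOXA1 and lower in every double knock-down, while UBE2C and PPDPF are lowest with siFOXA1 and higher in every double knock-down.

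The interferon effectors, the antiviral products of interferon signalling, had negative interactions. All 49 of the list passed the filter, all 49 values were negative, with a median of -0.91 against 0.01 over all genes tested, and 17 were called (34.7%; 1.21% of all genes were called negative). ZBED2 knock-down lowered 1 of them and raised 0 on siControl (median -0.03), and lowered 39 and raised 0 on siFOXA1 (median -0.91). FOXA1 knock-down raised the list by a median of 1.81 on siControl and 1.01 on siZBED2. Relative to the siControl mean, the list's median was 1.60 and 1.92 in the siFOXA1 libraries, 1.10 and 1.10 with siFOXA1+siZBED2-1, and 0.60 and 1.16 with siFOXA1+siZBED2-2, so that no double knock-down reached either siFOXA1 library. The number called was 30 with the replicate block, 29 with no filter on low counts and 0 with limma on log2(TPM + 1), where 22 had an unadjusted p under 0.05. It also moved with single libraries: 9 without siFOXA1 replicate 2, 31 without siFOXA1 replicate 1, 26 without siZBED2-2 replicate 1 and 34 without siFOXA1+siZBED2-2 replicate 2. At least 48 of the 49 values were negative in each of these fits.

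RSAD2 (ENSG00000134321, chr2:6865885-6898239), which encodes the antiviral enzyme viperin, was at 27.95 and 28.55 CPM in siControl, 15.0 and 21.3 with siZBED2-1, 45.6 and 58.9 with siZBED2-2, 242 and 414 with siFOXA1, 85.5 and 84.6 with siFOXA1+siZBED2-1, and 89.5 and 166 with siFOXA1+siZBED2-2. The ZBED2 siRNAs alone lay on either side of siControl, and all double knock-downs were below both siFOXA1 libraries. The interaction was -1.78 (SE 0.29, edgeR adjusted p = 0.000335). IFIT2 (ENSG00000119922, chr10:89302046-89309271), an inhibitor of viral translation, was at 112 and 116 CPM in siControl, 136 and 188 with siZBED2-1, 149 and 135 with siZBED2-2, 509 and 875 with siFOXA1, 362 and 409 with siFOXA1+siZBED2-1, and 209 and 343 with siFOXA1+siZBED2-2. Its interaction was -1.50 (SE 0.23, edgeR adjusted p = 0.000224). The siFOXA1 libraries of both genes differed from each other by more than the siControl libraries did, with replicate 2 the higher. GBP1 (ENSG00000117228, chr1:89052319-89065208), an interferon-induced GTPase, was at 163 and 134 CPM in siControl, 119 to 219 with siZBED2 alone, 451 and 544 with siFOXA1, and 229 to 338 in the double knock-downs (interaction -0.95, SE 0.17, edgeR adjusted p = 0.000800). The other called effectors were OAS2, IFIT1, OASL, IFITM3, UBE2L6, PLSCR1, SAMD9L, SAMHD1, ISG15, SP110, MX1, PARP14, IFI6 and DTX3L, with values between -1.61 and -0.60. Of these, DESeq2 did not call IFIT1, UBE2L6, ISG15, MX1 and IFI6.

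GAAANNGAA, the motif in capitals in the RSAD2 and GBP1 promoters, was found in 23 of the 40 effectors with a promoter in the table (57.5%; 5.48% of tested genes).

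Among the 18 receptors and transcription factors of interferon signalling that were tested, 3 were called, all negative (16.7%; 1.21% of all genes tested). Among them were STAT2 and SOCS3, a feedback inhibitor of JAK kinases. SOCS3 was at 16.2 and 16.8 CPM in siControl, 23.4 to 48.6 with siZBED2 alone, 33.9 and 37.2 with siFOXA1, and 28.6 to 39.9 in the double knock-downs (interaction -1.22, SE 0.31, edgeR adjusted p = 0.0256). IRF9, the DNA-binding partner of STAT2, had 9 to 100 counts per library and an interaction of -0.11 (SE 0.74, edgeR adjusted p = 0.980). The error of IRF9 was too wide to place it beside STAT2.

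Of 14 nucleic acid sensors 2 were called negative (14.3%; 1.21% of all genes tested), with a list median of -0.34. They were IFIH1, which senses double-stranded RNA, and AIM2, which senses DNA. PSMB9, an immunoproteasome subunit, was the only 1 of 14 genes of MHC class I presentation to be called negative (7.14%; list median -0.39). By edgeR 0 of 8 immune checkpoint ligands were called (3 at an unadjusted p under 0.05, 1 by DESeq2, 2 with the replicate block), with a median of -0.70. CD274, which encodes PD-L1, was at 3.40 and 5.59 CPM in siControl, 3.84 to 10.2 with siZBED2 alone, 24.1 and 32.7 with siFOXA1, and 6.15 to 18.2 in the double knock-downs. Both siFOXA1 libraries were above all others, but the interaction did not pass (-1.46, SE 0.56, edgeR adjusted p = 0.203).

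Of 18 chemokines and cytokines tested, 11 values were below 0. CXCL10, CXCL11, TNFSF10 and IL1A were called negative (22.2%; 1.21% of all genes tested) and CXCL1, a neutrophil chemokine, positive (5.56%; 1.07%). The call of CXCL1 was lost in 10 of 17 alternatives. Of the 5, 3 were called without siControl replicate 1, 2 without siFOXA1 replicate 2 and 0 with limma on log2(TPM + 1), where 7 of 18 had an unadjusted p under 0.05. CXCL10, an interferon-induced T cell chemokine, was at 1.13 and 4.99 CPM in siControl, 4.22 to 11.2 with siZBED2 alone, 31.4 and 78.5 with siFOXA1, and 9.07 to 25.6 in the double knock-downs, and its call (-2.82, SE 0.61, edgeR adjusted p = 0.00726) was lost without siControl replicate 1 or siFOXA1 replicate 2. IL1A, which encodes the alarmin interleukin 1 alpha, had another pattern. It was at 27.4 and 22.6 CPM in siControl, 146 and 139 with siZBED2-1 and 30.5 and 36.5 with siZBED2-2, so that siZBED2-1 alone lay far above the rest. On siFOXA1 (50.6 and 42.2 CPM) it was at 85.9 and 87.4 with siZBED2-1 and 31.2 and 39.2 with siZBED2-2. Its interaction was -1.61 with siZBED2-1 (edgeR adjusted p = 0.000988) and -0.82 with siZBED2-2 (edgeR adjusted p = 0.174), a difference that did not pass (edgeR adjusted p = 0.475). Of 17 NF-kB subunits and feedback genes, BIRC3, a ubiquitin ligase of TNF receptor signalling, was called (-0.73). This was 5.88% of the list, against 1.21% of all genes tested called negative.

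Cell division genes had positive interactions. 19 of 34 mitosis genes were called, all positive (55.9%; 1.07% of all genes were called positive), with 33 of 34 values above 0 and a median of 0.81. With limma on log2(TPM + 1) 5 were called, and 13 to 20 when 1 library was left out. ZBED2 knock-down lowered 4 of them and raised 0 on siControl (median -0.28), and raised 16 and lowered 0 on siFOXA1 (median 0.57), whereas FOXA1 knock-down gave a median of -1.22 on siControl and -0.38 on siZBED2. Relative to the siControl mean, the mitosis median was -1.14 and -1.37 in the siFOXA1 libraries, -1.01 and -0.97 with siFOXA1+siZBED2-1, and -0.34 and -0.33 with siFOXA1+siZBED2-2. The double knock-downs lay above siFOXA1 with both siRNAs, by more with siZBED2-2. With siZBED2 alone the median was -0.41 and -0.53 for siZBED2-1 and -0.07 and -0.10 for siZBED2-2. In bulk libraries, fewer dividing cells and less of these RNAs per cell cannot be told apart.

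TOP2A (ENSG00000131747, chr17:40388525-40417896), the topoisomerase that untangles replicated DNA, was at 1425 and 1267 CPM in siControl, 855 and 840 with siZBED2-1, 1057 and 1128 with siZBED2-2, 605 and 430.5 with siFOXA1, 599 and 606 with siFOXA1+siZBED2-1, and 968 and 911 with siFOXA1+siZBED2-2. All siZBED2 libraries were below siControl, and the double knock-downs with siZBED2-2 were above both siFOXA1 libraries, whereas 1 of those with siZBED2-1 was not. The interaction was 1.02 (SE 0.14, edgeR adjusted p = 5.85e-05), with a change of -0.48 on siControl and a rise of 0.54 on siFOXA1 that both passed. UBE2C (ENSG00000175063, chr20:45812644-45816952), the ubiquitin-conjugating enzyme of the anaphase-promoting complex, was at 154 and 180 CPM in siControl, 91.2 and 97.8 with siZBED2-1, 148 and 127 with siZBED2-2, 63.6 and 51.5 with siFOXA1, 92.5 and 79.9 with siFOXA1+siZBED2-1, and 108 and 112 with siFOXA1+siZBED2-2 (interaction 1.31, SE 0.20, edgeR adjusted p = 0.000188). MKI67 (ENSG00000148773, chr10:128096659-128126423), the proliferation antigen Ki-67, was at 403 and 302 CPM in siControl, 245 to 370 with siZBED2 alone, 80.8 and 70.5 with siFOXA1, 104 and 128 with siFOXA1+siZBED2-1, and 169 and 187 with siFOXA1+siZBED2-2 (interaction 1.13, SE 0.19, edgeR adjusted p = 0.000361). Unlike TOP2A and UBE2C, it was not called for siZBED2 alone (-0.21, SE 0.13, edgeR adjusted p = 0.575). The other called members were CDC20, CENPF, PTTG1, CCNB2, TPX2, CDK1, HMMR, PLK1, CENPE, ANLN, BUB1B, BIRC5, BUB1, PRC1, KIF23 and ASPM, between 0.66 and 1.35.

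TTTGAA, in capitals in the TOP2A and MKI67 promoters, was found in 16 of 29 mitosis genes with a promoter in the table (55.2%), and CCAAT in 22 of 29 (75.9%).

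Of 34 DNA replication genes 7 were called, all positive (20.6%, against 1.07% of all genes tested), with 33 of 34 values above 0 and a median of 0.81. They were RRM1 and RRM2, the ribonucleotide reductase subunits, MCM2, MCM3, MCM4 and MCM7 of the replicative helicase, and its loader CDC6. MCM2 was at 152 and 168 CPM in siControl, 112 and 72.3 with siZBED2-1, 139 and 155 with siZBED2-2, 58.7 and 64.2 with siFOXA1, 87.3 and 89.9 with siFOXA1+siZBED2-1, and 102 and 109 with siFOXA1+siZBED2-2. Each double knock-down was above both siFOXA1 libraries, and the interaction was 1.11 (SE 0.21, edgeR adjusted p = 0.00200). The replication count was 13 with the replicate block, 14 with DESeq2, 12 with no filter and 1 with limma on log2(TPM + 1). When 1 library was left out it ran from 5, without siControl replicate 1, to 11 or 12, without siZBED2-2 replicate 1 or siFOXA1 replicate 1. The E2F motif TTCCCGC was found in 13 of 29 promoters of the list (44.8%) and TTTGAA in 1 of 29 (3.45%).

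Outside these lists, MYBL2 and the histone gene HIST1H4C (1.23, SE 0.17), which has near-identical copies, were among the leading positive members. MYBL2, which encodes the B-Myb activator of mitosis genes, was at 242 to 404 CPM in the 6 libraries without siFOXA1, 118 and 91.6 with siFOXA1, 151 and 172 with siFOXA1+siZBED2-1, and 256 and 246 with siFOXA1+siZBED2-2 (interaction 1.14, SE 0.17, edgeR adjusted p = 0.000119). CDKN1A (ENSG00000124762, chr6:36676463-36687332), which encodes the cyclin-dependent kinase inhibitor p21, ran the opposite way. It was at 64.4 and 57.9 CPM in siControl, 121 and 151 with siZBED2-1, 88.2 and 88.6 with siZBED2-2, 230 and 238 with siFOXA1, 172 and 171 with siFOXA1+siZBED2-1, and 146 and 167 with siFOXA1+siZBED2-2. No group overlapped siControl or siFOXA1, and the interaction was -1.35 (SE 0.18, edgeR adjusted p = 3.38e-05). It was the only 1 of 13 G1 regulators called (7.69%, against 1.21% of all genes tested called negative).

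**Figure D3:**
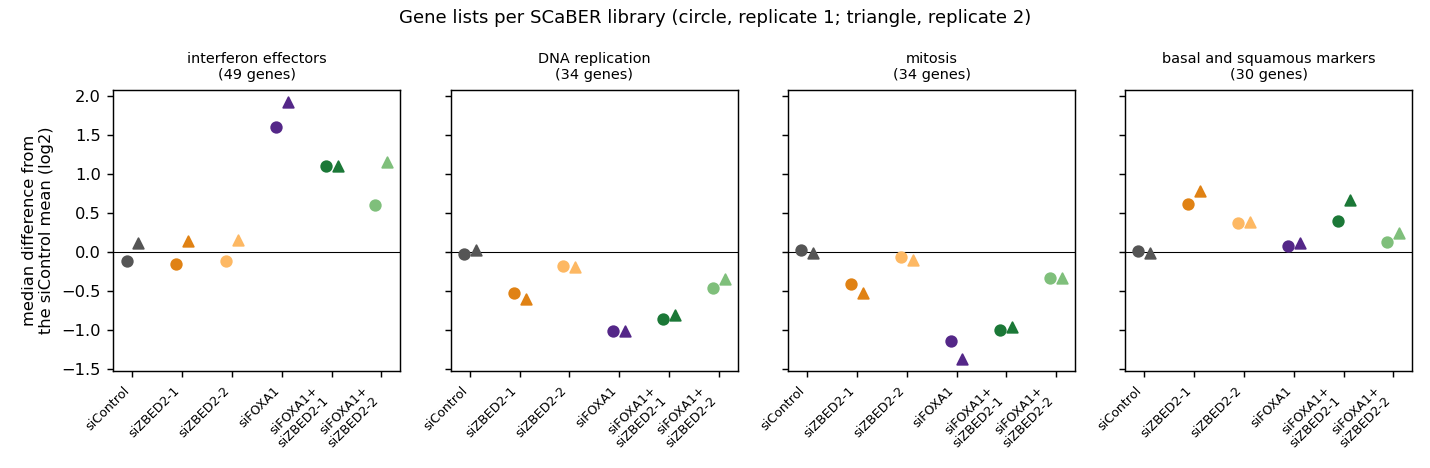
Median difference from the siControl mean (y axis, log2(CPM + 1)) of 4 gene lists in each SCaBER library (x axis, the 6 groups; circle replicate 1, triangle replicate 2). Interferon effectors are highest and the division lists lowest with siFOXA1 alone, where every double knock-down lies nearer 0, whereas basal and squamous markers are highest with siZBED2-1.

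Of 30 basal and squamous markers tested, 7 had an interaction, all negative (23.3%, against 1.21% of all genes tested), and 23 of 30 values were below 0. With ZBED2 knock-down 16 were higher and 0 lower on siControl (median 0.54), and 5 were higher and 1 lower on siFOXA1 (median 0.17). Those with an interaction were, among others, LAMA3 and LAMB3, which encode laminin chains of the basement membrane, the keratins KRT6B, KRT14 and KRT17, and the desmosomal cadherin DSC2. The list's median interaction was -0.35, and 4 were called without siZBED2-2 replicate 1, siFOXA1+siZBED2-2 replicate 1, siControl replicate 2, siZBED2-1 replicate 2 or siFOXA1 replicate 2, and 2 with limma on log2(TPM + 1). By edgeR 0 of 21 luminal markers were called (median 0.15), with 5 at an unadjusted p under 0.05, 1 by DESeq2 and 1 with the replicate block.

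LAMB3 (ENSG00000196878, chr1:209614870-209652425) was at 257 and 265 CPM in siControl, 588 and 567 with siZBED2-1, 388 and 383 with siZBED2-2, 758 and 879 with siFOXA1, 713 and 683 with siFOXA1+siZBED2-1, and 578 and 621 with siFOXA1+siZBED2-2 (interaction -1.19, SE 0.14, edgeR adjusted p = 1.64e-06). Either knock-down alone gave levels above both siControl libraries, and every double knock-down lay below both siFOXA1 libraries. KRT17, a keratin of activated basal cells, was at 906 and 804 CPM in siControl, 1051 to 1395 with siZBED2 alone, 2464 and 2308 with siFOXA1, 2449 and 2217 with siFOXA1+siZBED2-1, and 1829 and 1649.8 with siFOXA1+siZBED2-2 (interaction -0.79, SE 0.12, edgeR adjusted p = 0.000224). KRT6B, KRT14 and KRT17 have close paralogs whose reads the counting could have split.

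3 of 26 mesenchymal genes and matrix proteases were called, all negative (11.5%; 1.21% of all genes tested). Among them were PLAUR, the urokinase receptor (-0.80), and the metalloprotease ADAM8 (-0.91). ANKRD1, a YAP-TEAD target, was the only called gene of 15 on that list (6.67%, against 1.21% of all genes tested called negative). It was at 79.3 and 93.6 CPM in siControl, 136 and 177 with siZBED2-1, 70.1 and 92.7 with siZBED2-2, 168 and 184 with siFOXA1, 58.6 and 80.6 with siFOXA1+siZBED2-1, and 44.6 and 68.7 with siFOXA1+siZBED2-2. On siFOXA1 both ZBED2 siRNAs lowered it to the range of siControl or under it, whereas on siControl only siZBED2-1 lay above. The interaction was -1.87 (SE 0.24, edgeR adjusted p = 1.24e-05).

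Some members were raised by ZBED2 knock-down on siControl and hardly moved on siFOXA1. DDAH1, an enzyme that degrades inhibitors of nitric oxide synthesis, was at 35.5 and 31.9 CPM in siControl and between 83.9 and 117 CPM in all 10 other libraries, so that each knock-down gave about the same level and their combination no more (interaction -1.58, SE 0.21, edgeR adjusted p = 3.38e-05). CLDN1, the tight junction protein claudin 1, was at 121 and 141 CPM in siControl, 429 and 420 with siZBED2-1, 203 and 173 with siZBED2-2, and 200 to 289 in the 6 libraries with siFOXA1 (interaction -1.09, SE 0.17, edgeR adjusted p = 0.000239). ATP6V1D, a subunit of the lysosomal proton pump, was at 96.9 and 110 CPM in siControl, 168 to 227 with siZBED2 alone, 324 and 314 with siFOXA1 and 275 to 304 in the double knock-downs (interaction -1.09, SE 0.16, edgeR adjusted p = 9.95e-05).

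Other positive members were lowered by FOXA1 knock-down and were higher in the double knock-downs. RPS2 (chr16:1962058-1964826), a protein of the small ribosomal subunit, was at 2493 to 3227 CPM in the 6 libraries without siFOXA1, 786 and 777 with siFOXA1, 1589 and 1802 with siFOXA1+siZBED2-1, and 1676 and 1931 with siFOXA1+siZBED2-2. The double knock-downs lay between the other groups with no overlap. ZBED2 knock-down changed it by 0.07 (SE 0.09, edgeR adjusted p = 0.857) on siControl and raised it by 1.16 (SE 0.09, edgeR adjusted p = 1.14e-09) on siFOXA1 (interaction 1.09, SE 0.13, edgeR adjusted p = 2.27e-06). RPS2 has near-identical processed pseudogenes that could share its reads. PPDPF (chr20:63520741-63522206), named for pancreatic progenitor differentiation, was at 344 to 413 CPM in the 6 libraries without siFOXA1, 36.7 and 27.4 with siFOXA1, and 69.5 to 123 in the double knock-downs (interaction 1.46, SE 0.22, edgeR adjusted p = 0.000149). IGFBP3 (chr7:45912245-45921272), which binds insulin-like growth factors, was at 179 and 211 CPM in siControl, 109 to 152 with siZBED2 alone, 27.5 and 38.1 with siFOXA1, 73.2 and 75.7 with siFOXA1+siZBED2-1, and 37.3 and 58.2 with siFOXA1+siZBED2-2 (interaction 1.43, SE 0.23, edgeR adjusted p = 0.000335). Both siFOXA1+siZBED2-1 libraries lay above both siFOXA1 libraries for IGFBP3, whereas siFOXA1+siZBED2-2 replicate 1 did not. CRABP2, a carrier of retinoic acid, was at 136 to 189 CPM in the 6 libraries without siFOXA1, 59.1 and 94.6 with siFOXA1, and 146 to 196 in the double knock-downs, which returned to the level without siFOXA1 (interaction 1.26, SE 0.21, edgeR adjusted p = 0.000536).

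The remaining lists held few calls. There was 1 in each of the AP-1 factors (ATF3, of 12), sterol and fatty acid synthesis (FDPS, of 24), hypoxia and glycolysis (P4HA1, of 20), NRF2 targets (SQSTM1, of 15), the BCL2 family (BBC3, of 13) and the ATF4 and amino acid stress genes (CTH, of 18). CTH alone was positive. Over all genes tested, 1.07% were called positive and 1.21% negative. Of 17 alternatives, BBC3 lost its call in 12, P4HA1 in 8, CTH in 7, ATF3 in 3, and FDPS and SQSTM1 in 1 each. With limma on log2(TPM + 1), each list other than mitosis and the basal and squamous markers held at most 1 call. With the replicate block 3 genes of the NF-kB list and 2 each of the G1, YAP-TEAD and sterol lists were called. By edgeR, 0 of 16 ER chaperones and 0 of 13 genes of small RNA machinery were called, also with the replicate block and by DESeq2, with 3 of each list at an unadjusted p under 0.05 and medians of -0.11 and 0.24. The 13 mitochondrial genome transcripts had a median of -0.26 with 0 called by edgeR, 5 at an unadjusted p under 0.05, 5 with the replicate block and 2 by DESeq2. Mitochondrial transcripts made up 12.93% and 12.52% of counts in the siFOXA1 libraries and 9.295% to 11.98% in the other 10, and the part of this share in the results was not tested.

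**Figure D4:**
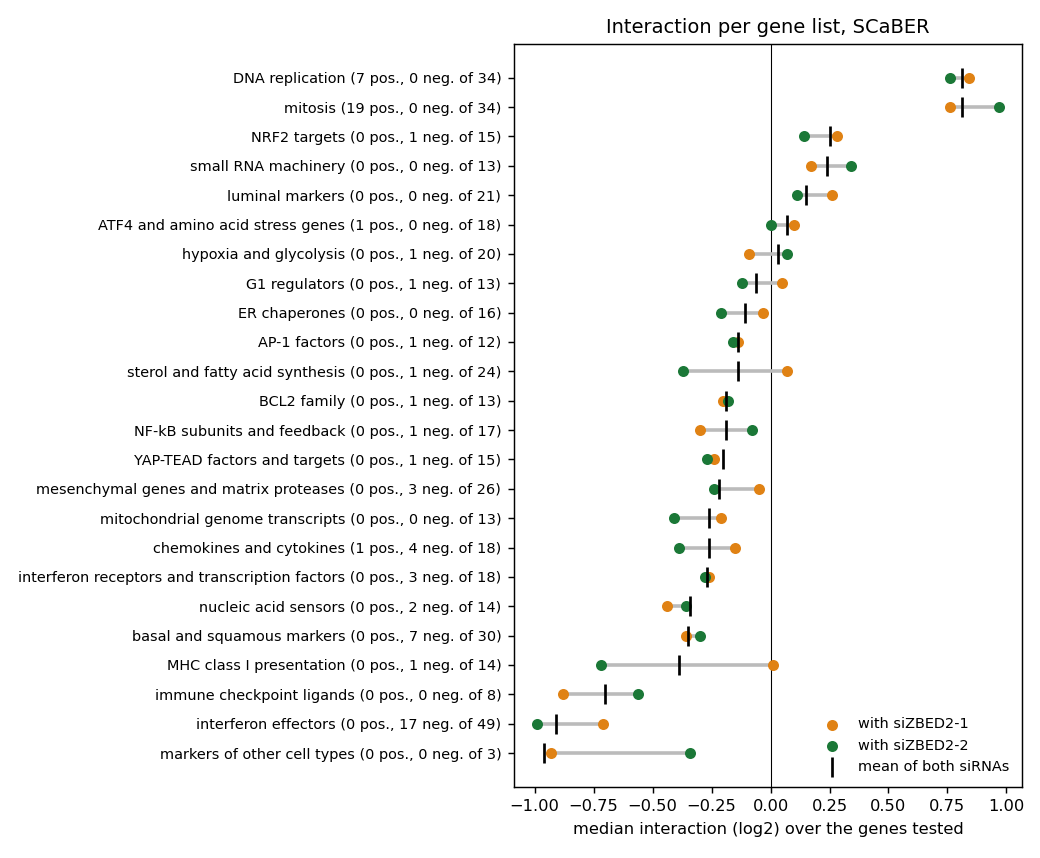
Median interaction (x axis, log2) of each of 24 gene lists, for both ZBED2 siRNAs together (black bar), siZBED2-1 (orange) and siZBED2-2 (green), with the number called positive and negative beside each list's name. DNA replication and mitosis lie highest at 0.81 with 0.76 to 0.97 for the single siRNAs, and the interferon effectors lie at -0.91.

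The ZBED2 siRNAs gave similar counts. The interaction with siZBED2-1 alone was called for 194 genes (1.48%) and with siZBED2-2 alone for 206 (1.57%), or 348 and 361 with the replicate block. The siRNAs differed in 5 genes (0.0381%), or 32 with the replicate block, and in 1 to 21 when 1 library was left out. The former count fell to 119, 100 and 94 without siControl replicate 2, siZBED2-1 replicate 2 and siFOXA1+siZBED2-1 replicate 2, and the latter went to 387 and 124 without siFOXA1 replicate 1 and 2. TXNIP (chr1:145992435-145996579), the glucose-responsive thioredoxin inhibitor, was 1 of the 5. It was at 57.2 and 59.5 CPM in siControl, 214 and 165 with siZBED2-1, 98.6 and 94.5 with siZBED2-2, 79.7 and 88.9 with siFOXA1, and 66.3 to 84.9 in the double knock-downs. The rise on siControl was thus larger with siZBED2-1, and on siFOXA1 neither siRNA gave a rise.

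The gene lists were chosen with earlier results of these data known, but no RT112 library entered the fit that called the 300 members. In RT112 the interaction was called for 81 of 13264 genes (0.611%), or 212 with the replicate block. The count was 330 or 13 without siFOXA1 replicate 1 or 2, 22 without siControl replicate 2, 124 without siZBED2-2 replicate 1 and 122 without siFOXA1+siZBED2-1 replicate 2. 289 of the 300 members were tested in RT112, 19 were called (6.57%), and all 19 had the sign seen in SCaBER. Of all 289, 255 (88.2%) had the same sign, against 59.4% of the 11763 genes tested in both lines. The share was 130 of 139 (93.5%) for positive members, whose median in RT112 was 0.52, and 125 of 150 (83.3%) for negative members, with a median of -0.41.

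ANKRD1 (-2.82, SE 0.32, edgeR adjusted p = 4.25e-05), the autophagy receptor SQSTM1 (-1.35, SE 0.19, edgeR adjusted p = 0.000458), IGFBP3 (1.14, SE 0.20, edgeR adjusted p = 0.00582), PPDPF (1.23, SE 0.23, edgeR adjusted p = 0.00988), HMMR and BIRC3 were among the 19. INHBA was not: in RT112 its interaction was 0.03 (SE 0.69), with siZBED2 changes of 1.29 on siControl and 1.33 on siFOXA1. Its difference between the lines, -1.997, did not pass (edgeR adjusted p = 0.501). The mitosis list had a median of 0.66 in RT112 with 34 of 34 values above 0 and 1 called, and the replication list a median of 0.26 with 28 of 34 above 0 and 1 called. The interferon effectors had a median of -0.32, with 31 of 48 values below 0, and 0 called by edgeR (6 at an unadjusted p under 0.05). The siZBED2 change of the replication list in RT112 had a median of -0.42 on siControl and -0.17 on siFOXA1, against -0.41 and 0.38 in SCaBER. That of the mitosis list was -0.52 and 0.16, against -0.28 and 0.57, and that of the effectors 0.12 and -0.21, against -0.03 and -0.91. A test of the difference of the interaction between the lines called 2 of 14823 genes (0.0135%), among them PMEPA1, or 8 with the replicate block.

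**Figure D5:**
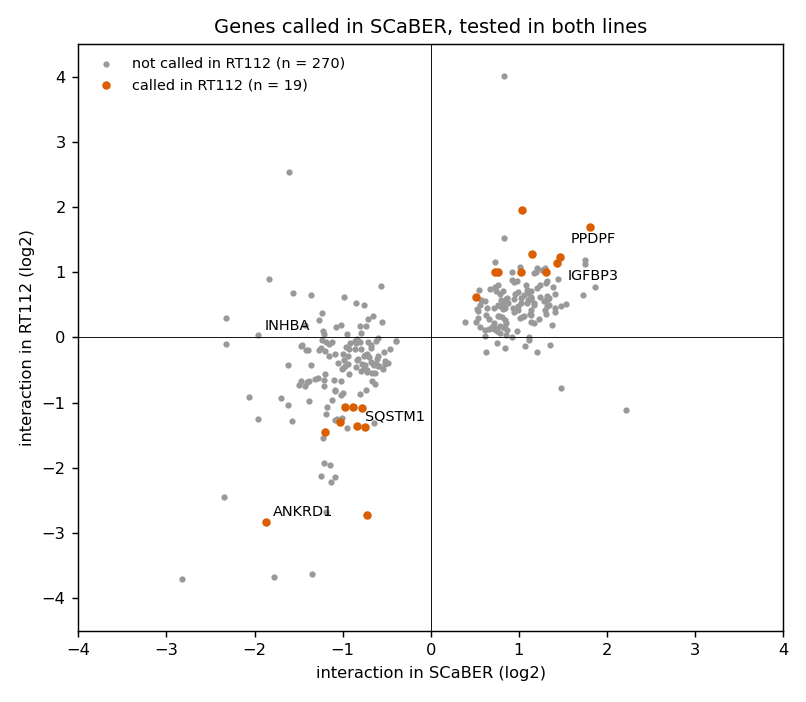
The interaction in SCaBER (x axis, log2) against that in RT112 (y axis, log2) for the 287 members within the axes of the 289 tested in both lines; orange points are the 19 called in RT112 and 2 members lie outside. All 19 lie in the lower left or upper right quadrant.

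In SCaBER, siFOXA1 changed 2341 genes on siControl (17.8%) and 1331 on siZBED2 (10.1%), and the latter count was 872 without siFOXA1+siZBED2-1 replicate 1. The same FOXA1 siRNA was used in both lines, and whether its changes came from the loss of FOXA1 was not tested. As a view of siFOXA1-responsive genes that uses no SCaBER library, genes were grouped by the siFOXA1 change on siControl in RT112. 1438 genes that rose there were tested in SCaBER. Their median interaction was -0.24, 22.9% had a positive value, and 1 was called positive and 85 negative. 1488 genes that fell there had a median of 0.33, 79.8% had a positive value, and 115 were called positive and 2 negative. Over all genes tested the median was 0.01, 50.9% had a positive value, and 1.07% were called positive and 1.21% negative. In SCaBER the siZBED2 changes of the genes that rose had medians of 0.07 on siControl and -0.17 on siFOXA1, and of those that fell -0.08 and 0.25. Genes that siFOXA1 raised in the luminal line thus had mostly negative, and those it lowered mostly positive, interactions in the Ba/Sq line.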

How the data were processed

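QuantSeq 3' RNA-seq was made of 24 libraries of SCaBER and RT112, in 6 siRNA groups of 2 libraries per line. The authors deposited raw counts per gene, which the submitters' processing notes credit to TrimGalore 0.6.2 (minimum quality 20, minimum length 10), STAR 2.6.1a and GENCODE release 29 on hg38 (raw-qc 2.1.0), while the study's methods name another build. Poly-A stretches were not trimmed per these settings. Deposited TPM values, whose tool is not given in the sources used here, served only as an alternative. Groups came from the sample labels.

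Counts of the 12 SCaBER libraries were fitted with edgeR 4.0.16 (R 4.3.3): TMM scaling, a filter on low counts (minimum count 10, minimum total 15), 6 group means and the quasi-likelihood F-test, with Benjamini-Hochberg adjustment over all genes tested. A gene was called at an adjusted p under 0.05. SE is the value divided by the root of F. The biological coefficient of variation was 21.6% in SCaBER, and 3 counts corresponded to 0.480 to 0.680 CPM per library, a floor that covers counting error only. 34121 of 58721 genes had no count. The model was tested on simulated counts first. Replicate pairs differed by more than sampling noise, with a chi-square per gene of 6.24 to 9.66.

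The replicate numbers are experiment batches per the labels, so they pair the libraries. Same-numbered libraries correlated by -0.0135 to 0.0707 in their deviations from the group means over 15 group pairs, none over 0.1. Alternatives were RLE scaling, no filter, DESeq2 1.42.0, the replicate block, limma 3.58.1 on log2(TPM + 1), all 24 libraries in 1 fit, other thresholds and leaving out each library. The sign on the CPM scale was added after the data were seen.

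Genes named are the 15 of smallest p in each direction, every called member of a gene list, and a fixed set with ZBED2, FOXA1, STAT2, IRF9 and CD274, in all 96, of which 92 were called. Some of them are not reported here. Members and lists were chosen with earlier results of these data known. Gene positions are those of RefSeq GRCh38.p14, in which 4 members, mitochondrial RNAs, had no match.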

Additional observations from a re-analysis of the deposited data

Results flagged for a closer look

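In the following 6 genes the interaction differed between the cell lines or between the ZBED2 siRNAs by a test of the difference itself, adjusted over all genes tested. PMEPA1, an inhibitor of TGF-beta signalling, had -1.23 in SCaBER and 0.37 in RT112, a difference of -1.61 (SE 0.29, edgeR adjusted p = 0.0240).

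Between the siRNAs, the interaction of TXNIP was -2.01 with siZBED2-1 and -0.82 with siZBED2-2, a difference of 1.18 (SE 0.24, edgeR adjusted p = 0.0441). The cytokine gene IL24 had -4.57 and -1.59, a difference of 2.97 (SE 0.57, edgeR adjusted p = 0.0381). It was at 2.08 and 3.39 CPM in siControl, 31.6 and 21.5 with siZBED2-1, 4.62 and 0.961 with siZBED2-2, 87.3 and 48.1 with siFOXA1, and 21.0 to 34.1 in the double knock-downs. SERPINB2, which encodes the plasminogen activator inhibitor 2, had -2.55 and 0.12, a difference of 2.67 (SE 0.33, edgeR adjusted p = 2.55e-05). Its level was 130 and 111 CPM with siZBED2-1 and 16.4 to 45.7 CPM in the other 10 libraries. The carboxypeptidase gene CPA4 had 0.31 and -1.20, a difference of -1.52 (SE 0.28, edgeR adjusted p = 0.0303), and the actin-binding gene TRIOBP 0.75 and -0.20, a difference of -0.95 (SE 0.18, edgeR adjusted p = 0.0381). For TXNIP, IL24 and SERPINB2, both siZBED2-1 libraries lay above all siControl and siZBED2-2 libraries.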

How the results depend on the processing

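All 300 interactions kept their sign in the 17 alternatives run on the SCaBER fit. The call counts moved more. The 300 became 464 with DESeq2, 508 with the replicate block, 31 with limma on log2(TPM + 1), 120 with all 24 libraries in 1 fit, 478 at an adjusted p under 0.1 and 151 with a 2-fold minimum, and ranged from 205 to 430 when 1 library was left out, with 167 to 268 of the 300 among them. All 31 calls on TPM were among the 300, and 64.5% of them were positive against 47.0%. In the 24-library fit 37.5% were positive. RLE scaling gave 297 and no filter 401.

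For siZBED2-1 alone the 194 became 336 with DESeq2, 348 with the replicate block and 16 on TPM (94 to 287 without 1 library), and for siZBED2-2 the 206 became 330, 361 and 8 (124 to 387). The 5 genes that differed between the siRNAs became 31 without a filter, 25 with DESeq2, 32 with the replicate block and 2 on TPM (1 to 21, moving over 1.5 times without any library but replicate 1 of siZBED2-2 or of siFOXA1+siZBED2-2). The 81 of RT112 became 224 without a filter, 238 with DESeq2, 212 with the replicate block and 4 on TPM (13 to 330). The 2 that differed between the lines became 33, 43 and 8 without a filter, with DESeq2 and with the replicate block (1 to 16, the last without RT112 siFOXA1 replicate 1). The component comparisons gave 82 on TPM for siZBED2 on siControl (92 to 309), 214 for siZBED2 on siFOXA1 (211 to 583, with 74.8% higher against 53.8%), 670 for siFOXA1 on siZBED2 (872 to 1516), and 1671 to 2413 without 1 library for siFOXA1 on siControl. The 17 genes of opposite direction became 30 with DESeq2, 34 with the replicate block and 3 on TPM (8 to 23). The replicate block ended no call of a named gene. The cause of these moves was not tested.

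Of the values of the named genes, 1406 kept their sign and side of the threshold, 215 lost the call and 6 changed sign, the last in genes that were not called: FOXA1 at 0.23 on TPM and 0.27 without siZBED2-1 replicate 1 (-2.33 to 0.27 when 1 library was left out), and IRF9, at -0.79 to 0.24 likewise, at 0.24 without siControl replicate 1, 0.13 without siFOXA1+siZBED2-1 replicate 1, 0.13 without siZBED2-1 replicate 2 and 0.22 without siFOXA1+siZBED2-2 replicate 2. INHBA, LAMB3, STAT2, CDKN1A, RPS2, TOP2A and UBE2C kept their calls in the 17 alternatives run on single genes, which leave out the fit of all 24 libraries. With 2 libraries a group and 4519668 to 6119210 counts a library, genes at a few counts such as FOXA1 had errors above 2-fold, and their interaction could not be resolved.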

Other observations

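Gene families were looked at after the values were seen, so they are given as descriptions with no test. Some hold members of the lists above, such as KIF23 of the mitosis list and GBP1 of the interferon effectors. Of 20 small nucleolar RNA host genes, whose introns carry guides for ribosomal RNA modification, 4 were called (SNHG1, SNHG3, SNHG19 and SNHG25), all positive, and 17 of 20 values were above 0 (median 0.45). Of 82 ribosomal protein genes, 70 values were above 0 with a median of 0.16, and 2 were called, RPS2 and RPL23A. Over all genes tested, 1.07% were called positive and 1.21% negative.

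Of 11 integrin subunits, the receptors of laminins and other matrix proteins, 4 were called (ITGA2, ITGA3, ITGA5 and ITGB6), all negative, with 10 of 11 values below 0 (median -0.47). The complement proteases C1R (-1.19, SE 0.25) and C1S (-1.38, SE 0.29) and the mitochondrial superoxide dismutase SOD2 (-1.57, SE 0.26) were negative. Of 25 kinesins 5 were called, all positive (KIF14, KIF18B, KIF20B, KIF22 and KIF23), with 16 of 25 values above 0 (median 0.50). All 6 guanylate-binding proteins had values below 0 (median -0.76, 1 called, GBP1), as did all 4 apolipoprotein L genes (median -0.97, 1 called). Both mitochondrial ribosomal RNAs were called, MT-RNR2 at -0.39 and MT-RNR1 at -0.68, and have nuclear copies that could share their reads.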
